A study of Homo sapiens with 8 samples.

Results

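The RNA of the proteasome genes was compared between D283-OMO cells grown with and without doxycycline (DOX). The members were the protein-coding genes whose GENCODE symbol is PSMA to PSMG followed by a number, together with ADRM1 and POMP, a definition that uses names and no measured value. This gave 50 genes of the 60668 in the count files, and 46 of them had more than 1 CPM (counts scaled to library size) in at least 4 of the 8 libraries and were tested among 15222 genes. Of the other 4, the testis-type subunit PSMA8, the thymus-type subunit PSMB11 and the immunosubunits PSMB8 and PSMB9 were below this limit.

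The proteasome is the particle that degrades proteins marked with ubiquitin. Its 20S core is a barrel of stacked rings, in which the outer alpha rings gate the entrance and the inner beta rings carry the catalytic sites. The 19S regulatory particle caps the barrel. Its base holds a ring of ATPases that unfold the substrate, its lid removes the ubiquitin chain, and dedicated chaperones help to build both parts. Growing cells depend on the proteasome for the turnover of short-lived regulators, MYC among them.

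D283 MED is a long-established medulloblastoma cell line. All 8 libraries came from cells transduced with a lentivirus that carries OMOMYC, a dominant-negative form of MYC, behind a DOX-inducible promoter. The 4 OMO libraries were untreated and the 4 OMO+DOX libraries came from cells given DOX for 72 h, with replicates described by the study as independent. Transduced cells were selected with hygromycin, and whether the line was cloned is not stated in the sources used here. DOX-treated cells without the transgene were not analysed here, so that the effects of DOX and of the transgene cannot be told apart.

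Total counts per library ranged from 38390696 to 54020506. Of 8 marker genes of Group 3 medulloblastoma, 7 exceeded 1 CPM in the mean of the untreated libraries and EOMES did not. Their summed level lay between 3248 and 3315 CPM without DOX and between 1762 and 1903 CPM with it. Of this sum, MYC was 880 to 1049 CPM without and 1047 to 1179 CPM with DOX. EOMES was also higher with DOX, at up to 1.03 CPM. OTX2, CRX, NRL, GABRA5, IMPG2 and NPR3 were lower in every treated library. Of 15 markers of blood, stromal, endothelial, epithelial, glial and oligodendrocyte cells, COL1A1 alone exceeded 1 CPM without DOX, and COL1A1, LYZ and CDH5 did so with DOX. This list summed to 23.7 to 24.5 CPM without and 25.8 to 29.3 CPM with DOX, MOG was at 0 in every library, and the part of such genes in the proteasome results was not tested. The known MYC targets CAD and NCL fell with DOX, by 0.48 and 0.44 on the log2 scale (adjusted p = 1.33e-06 and 1.23e-06, edgeR). Reads assigned to MYC rose by a log2 fold change (log2FC) of 0.26 (adjusted p = 0.00237, edgeR), but counts per gene do not separate transcripts of the transgene, itself derived from MYC, from those of the endogenous gene.

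Most proteasome genes were lower in the DOX-treated cells, by modest amounts. With p-values from edgeR's quasi-likelihood fit, adjusted over every gene tested, 28 of the 46 members tested fell, 3 rose and 15 did not pass an adjusted p of 0.05. Among all genes tested, 38.1% fell and 38.5% rose by the same call, so that the members were more often lower and more rarely higher than the genes as a whole. The corresponding shares of the members were 60.9% and 6.52%. The median log2FC of the members was -0.23, a ratio of 0.853 between DOX-treated and untreated cells, whereas the median over all genes tested was 0.01. Without OMO replicate 3 these medians were -0.16 and 0.0066. When libraries were scaled by their total counts alone, which raised the log2FC of the median gene by 0.13, the call gave 22 members that fell and 8 that rose, and the median of the members was -0.10. Of all genes, 31% fell and 47% rose under that scaling. PSME1, PSME2, PSME3, POMP and PSMD12 were the 5 members it added to those that rose.

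The members varied little in the size of their change. The SD of their log2FC was 0.32, against 1.28 over all genes tested, and a single member, PSMD14, passed an absolute log2FC of 1, as did 20.9% of all genes. The median untreated level was 88.9 CPM for the members and 21.9 CPM for all genes tested. The members were not compared with genes of like level. With an additional limit on size, 6 members fell by more than 0.5 on the log2 scale and 2 rose by more than 0.5, or 13% and 4.35% of those tested, where 21.8% and 22.3% of all genes did. No member passed the thresholds of the study for differential expression, an FDR below 0.001 with an absolute log2FC above 2, in edgeR's test. Of all genes, 7.12% passed them. This FDR is from the study's methods, and its results section gives a less strict one. The log2FC of the members tested ranged from -1.18 to 0.71, so that none passed the limit on size. An adjusted p below 0.05 alone was passed by 31 members, with 60.9% of those tested lower and 6.52% higher. Of all genes, 38.1% were lower and 38.5% higher by that call.

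**Figure D1:**
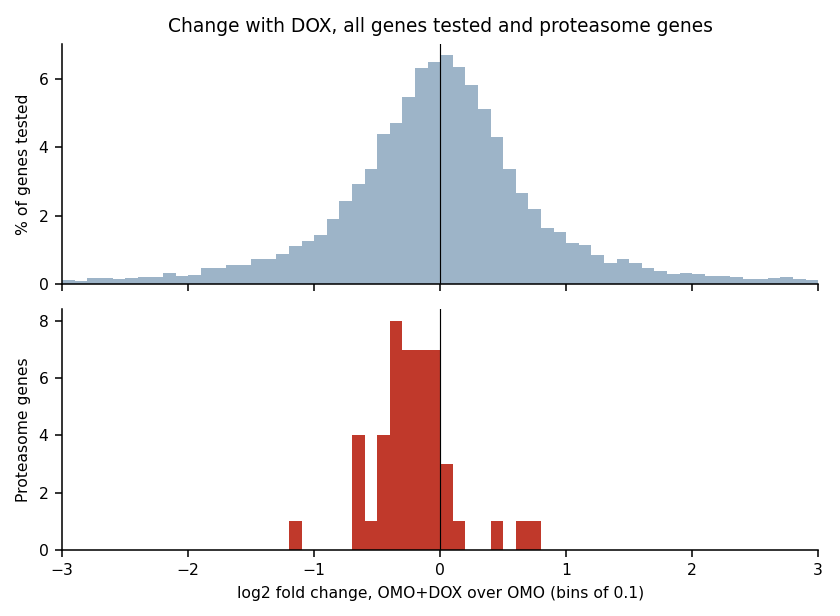
Distribution of the log2FC (horizontal axis, OMO+DOX over OMO, bins of 0.1) as the percentage of the 15222 genes tested (upper panel, between -3 and 3) and as the number of the 46 proteasome genes tested (lower panel). The proteasome genes lie in a narrow range to the left of 0, with PSMD14 at -1.18 alone on the left and 3 genes that rose above 0.4 on the right.

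The separation between libraries followed the same order. All 4 DOX-treated libraries lay below all 4 untreated ones for 25 of the 46 members, where 35.4% of all genes did so, and above them for 3 members, where 36.3% of all genes did. One untreated library stood apart. OMO replicate 3 held the highest untreated level of 39 of the 46 members, whereas it was the highest untreated library for only 39.7% of all genes. Its log2 level over the mean of the other untreated libraries had a median of 0.20 across the members. Without this library, 27 members fell and 5 rose, where 39.4% and 39.7% of all genes did. PSMB2 was then no longer called lower, and PSME1 and PSME2 were called higher. The part of whatever set this library apart in the member values was not tested. In bulk RNA, less RNA per cell and fewer cells with a given level cannot be told apart.

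**Figure D2:**
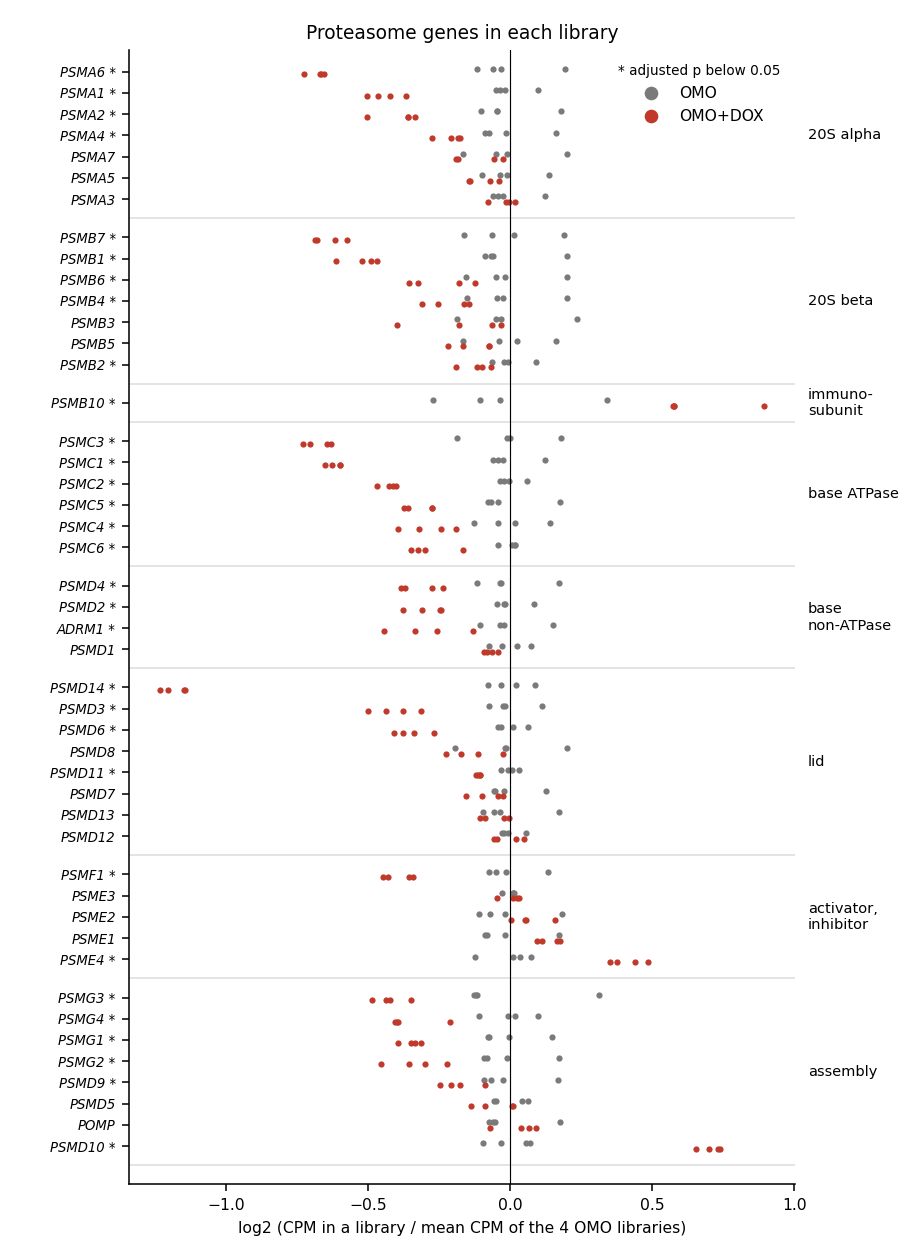
Level of each of the 46 tested proteasome genes in each library, as log2 of its CPM over the mean CPM of the 4 OMO libraries, grouped by role, with OMO libraries in grey and OMO+DOX libraries in red. An asterisk marks an adjusted p below 0.05; the red points of PSMD14 lie farthest to the left and those of PSMB10, PSMD10 and PSME4 lie to the right of all their grey points.

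Among the 46 members tested, the largest change in either direction was that of PSMD14, the deubiquitinase of the lid that cuts the ubiquitin chain from the substrate. PSMD14 (ENSG00000115233.12) lies on the plus strand of GRCh38, at chr2:161308038-161411717. Its level was 252, 269, 282 and 260 CPM in OMO replicates 1 to 4 and 115, 120, 120 and 113 CPM in OMO+DOX replicates 1 to 4. Every treated library was thus far below every untreated one. The mean was 266 ± 13.2 CPM without and 117 ± 3.56 CPM with DOX (SD, n = 4 each), which is a log2FC of -1.18 with a standard error (SE) of 0.05 (adjusted p = 1.02e-09, edgeR). The antisense gene AC009299.3, which shares exonic bases with PSMD14 on the opposite strand, stayed below 1 CPM in every library.

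The rest of the lid changed less. PSMD3 and PSMD6, structural subunits of the lid, fell by 0.41 and 0.35 on the log2 scale, and PSMD11 fell by 0.11 (adjusted p = 3.85e-05, 3.2e-05 and 0.0196, edgeR). PSMD7, which pairs with PSMD14 in the catalytic dimer of the lid, had levels of 54.1 to 61.4 CPM without and 50.5 to 55.4 CPM with DOX. These ranges overlapped, and its log2FC of -0.08 did not pass (adjusted p = 0.194, edgeR). PSMD8, PSMD12 and PSMD13 did not pass either, with log2FC of -0.13, -0.01 and -0.05. In all, 4 of the 8 lid genes among the members fell, a share not far from the 38.1% of all genes that did. The median log2FC of these 8 was -0.12, which became 0.0053 when libraries were scaled by total counts alone. That scaling also turned the sign of PSMD11. The lid subunit SEM1, outside the definition of the members, fell by 0.36 and is given with the partner genes below.

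In the base of the 19S particle, all 6 ATPases fell, with non-overlapping groups for each and a median log2FC of -0.37. Among all genes tested, 38.1% fell, and 35.4% had every treated library below every untreated one. The fall of each of the 6 ATPases also passed when libraries were scaled by total counts, where 31% of all genes fell. The largest was that of PSMC3 (ENSG00000165916.8), which stood at 106, 121, 137 and 120 CPM in the untreated and 73.1, 74.4, 77.6 and 78.4 CPM in the DOX-treated replicates 1 to 4. The ratio of DOX-treated to untreated level was 0.626 (log2FC -0.68, SE 0.07, adjusted p = 2.98e-06, edgeR). PSMC1 went from 145 ± 8.55 to 94.2 ± 1.67 CPM (SD, n = 4 each; log2FC -0.62, adjusted p = 3.32e-07, edgeR), and its treated libraries spread over less than 4 CPM. PSMC2, PSMC5, PSMC4 and PSMC6 fell by 0.43, 0.32, 0.29 and 0.28 on the log2 scale, in that order. The ATPases together summed to 656 ± 44.1 CPM without and 484 ± 11.2 CPM with DOX, 26.2% lower.

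Some of these genes share sequence or position with others. Processed pseudogenes took 4.42% of the counts of PSMC1 and its pseudogenes in untreated cells and 4.77% in treated ones, the largest such share among the members. PSMC1 also overlaps exons of NRDE2 on the opposite strand, and PSMC5 those of FTSJ3. Whether strand was used in counting is not stated in the sources used here. NRDE2 was at 26 to 32.2 CPM without and 36.1 to 40.8 CPM with DOX, opposite in direction to PSMC1.

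The 4 non-ATPase subunits of the base are the scaffolds PSMD1 and PSMD2 and the ubiquitin receptors PSMD4 and ADRM1. Both receptors fell, PSMD4 from 214 ± 19 to 172 ± 8.65 CPM and ADRM1 from 61 ± 4.76 to 50 ± 4.59 CPM (SD, n = 4 each; adjusted p = 0.000862 and 0.00373, edgeR). PSMD2 fell by 0.29 on the log2 scale (adjusted p = 0.000164, edgeR). PSMD1 had overlapping groups, with 89.8 to 99.4 CPM without and 88.6 to 91.7 CPM with DOX (log2FC -0.07, adjusted p = 0.167, edgeR).

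The alpha subunits of the core, which form its gate, differed in their values, and differences between them were not tested. PSMA6 (ENSG00000100902.11) was at 121, 128, 150 and 126 CPM in the untreated and 79.3, 83.1, 82.4 and 82.4 CPM in the DOX-treated replicates 1 to 4. Its groups were well apart, with a log2FC of -0.68 (SE 0.06, adjusted p = 1.46e-06, edgeR). PSMA3 of the same ring was at 51.5 to 58.5 CPM without and 50.9 to 54.4 CPM with DOX, a log2FC of -0.02 that did not pass (adjusted p = 0.735, edgeR). PSMA1, PSMA2 and PSMA4 fell by 0.44, 0.39 and 0.21 on the log2 scale. PSMA5 and PSMA7 did not pass, with log2FC of -0.10 and -0.11. PSMA6 shares exonic bases on the same strand with the annotated transcript gene AL121594.1, which was at 6.7 to 11.2 CPM over the 8 libraries.

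Of the 7 constitutive beta subunits, 5 fell, where 38.1% of all genes did, and the median log2FC was -0.22. Without OMO replicate 3 that median was -0.15. Among the catalytic subunits, PSMB7, which carries the trypsin-like site, was at 131, 148, 167 and 140 CPM in the untreated and 91.4, 91, 95.4 and 98.4 CPM in the DOX-treated replicates 1 to 4. Its groups did not overlap and its log2FC was -0.64 (SE 0.07, adjusted p = 5.16e-06, edgeR). PSMB6, with the caspase-like site, had groups that overlapped and a log2FC of -0.24 (SE 0.08, adjusted p = 0.0148, edgeR). PSMB5, the chymotrypsin-like subunit and main target of proteasome inhibitor drugs, had a log2FC of -0.13 (SE 0.07, adjusted p = 0.0954, edgeR), with 193 to 242 CPM without and 186 to 205 CPM with DOX. Differences between these 3 subunits were not tested.

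Among the non-catalytic beta subunits, PSMB1 fell from 166 ± 16.4 to 116 ± 5.04 CPM (SD, n = 4 each; log2FC -0.52, adjusted p = 2.16e-05, edgeR). PSMB4 and PSMB2 fell by 0.22 and 0.12 on the log2 scale (adjusted p = 0.0164 and 0.0418, edgeR). The call of PSMB2 was lost in 6 of the 8 fits without 1 library and with the stricter filter on low counts, and that of PSMB4 without OMO+DOX replicate 2. PSMB3 did not pass, with a log2FC of -0.16. The calls of PSMB2, PSMB4, PSMB6, PSMA4, PSMD9 and PSMD11 were lost when libraries were scaled by total counts alone, and PSMB2 then had a log2FC of 0.0089. The 14 constitutive core genes together summed to 1530 ± 136 CPM without and 1243 ± 46.8 CPM with DOX (SD, n = 4 each), 18.7% lower, or 15.1% lower without OMO replicate 3. The 18 members of the 19S particle summed to 2286 ± 132 and 1772 ± 47.6 CPM, 22.5% lower.

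Immunosubunits replace the catalytic subunits in cells exposed to interferon and alter the peptides made for antigen presentation. They were rare in these cells. PSMB10, which replaces PSMB7, stood at 2.26, 2.53, 3.45 and 2.66 CPM in the untreated and 4.07, 4.06, 5.07 and 4.06 CPM in the DOX-treated replicates 1 to 4. It rose without overlap between the groups (log2FC 0.66, SE 0.14, adjusted p = 0.000917, edgeR). The gene AC040162.1, which shares exonic bases with PSMB10 on the same strand, was at 1.25 to 1.44 CPM without and 1.39 to 2.14 CPM with DOX.

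PSMB8, which replaces PSMB5, was counted 3, 2, 1 and 1 times in the untreated and 13, 8, 22 and 12 times in the DOX-treated libraries. The summed counts of 7 and 55 gave a ratio of 8.15 at equal depth, with an exact 95% interval of 3.7 to 21.2. This interval reflects the error of counting alone, since it pools the libraries of each group and leaves out the variation between replicates. The libraries carried no molecular identifiers, so that copies of 1 molecule were not set apart in these counts. PSMB8 reached 0.43 CPM at most, lies in a region shared with the antisense gene PSMB8-AS1, and was not part of the genes tested. PSMB9, which replaces PSMB6, had 0, 3, 1 and 1 counts without and 2, 3, 4 and 0 counts with DOX, too few to compare. PSMA8 had 1 count in the untreated libraries together and 3 in the treated ones, and PSMB11 had 1 in each group.

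In proportion to its constitutive counterpart, PSMB10 amounted to 1.85% of the counts of PSMB7 in untreated cells and 4.59% in DOX-treated cells. The log2 ratio PSMB10/PSMB7 was -5.86, -5.87, -5.6 and -5.72 in the untreated and -4.49, -4.49, -4.23 and -4.6 in the treated libraries. The groups were apart by 1.31, with an exact two-sided permutation p = 0.029, the smallest that 4 against 4 libraries allow. Adjusted over the 4 ratios tested, p was 0.0571 and did not pass. Without OMO replicate 3, the ratio differed by 1.36 and the adjusted exact p was 0.0381, since PSME1/PSME3 then also reached the smallest p, while the unadjusted p of PSMB10/PSMB7 was at its smallest either way. Ratios with PSMB8, PSMB9 or PSMA8 were not tested because each of these genes had at most 3 counts in some library.

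The activators are rings that can open the core in place of the 19S particle. PSME4, a nuclear activator linked to the degradation of acetylated histones, was at 113, 111, 102 and 116 CPM in the untreated and 150, 155, 144 and 141 CPM in the DOX-treated replicates 1 to 4. All treated libraries were above all untreated ones, with a log2FC of 0.41 (SE 0.05, adjusted p = 2.08e-05, edgeR). PSME3, another nuclear activator, stayed within 138 to 146 CPM in all 8 libraries (log2FC 0.0046, SE 0.04, adjusted p = 0.92, edgeR), although it was called higher, at a log2FC of 0.13, under scaling by total counts. PSME1 and PSME2, the interferon-induced activator pair, did not pass, with log2FC of 0.14 and 0.07 (adjusted p = 0.0571 and 0.365, edgeR). PSMF1, an inhibitor of the core in vitro, fell from 99.5 ± 6.55 to 75.8 ± 2.74 CPM (SD, n = 4 each; log2FC -0.39, adjusted p = 3.79e-05, edgeR).

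The log2 ratio PSME4/PSME3 rose from -0.37 ± 0.09 to 0.04 ± 0.08 (SD, n = 4 each) without overlap, a difference of 0.41 with an exact two-sided permutation p = 0.029 and an adjusted p of 0.0571 that did not pass. The ratios PSME1/PSME3 and PSME2/PSME3 overlapped between the groups, with differences of 0.14 and 0.07 and exact two-sided permutation p = 0.143 and 0.4, adjusted to 0.19 and 0.4. Without OMO replicate 3, PSME4/PSME3 and PSME1/PSME3 differed by 0.37 and 0.19, each with an adjusted exact p of 0.0381. For PSME4/PSME3 this came from the adjustment, as its difference was smaller and its unadjusted p was again the smallest possible.

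**Figure D3:**
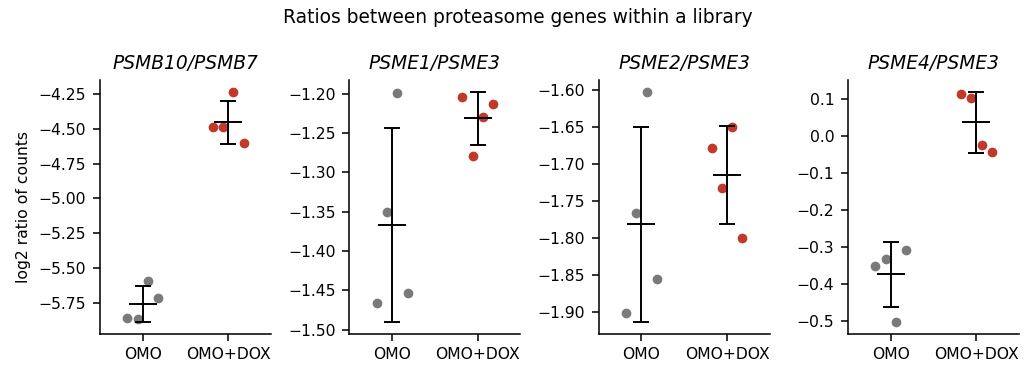
The log2 ratio of counts between pairs of proteasome genes within each library (points, vertical axis) in the 4 OMO and 4 OMO+DOX libraries, with the mean and SD of each group as bars. The axes do not start at 0 and differ between panels; the groups are apart for PSMB10/PSMB7 and PSME4/PSME3 and overlap for PSME1/PSME3 and PSME2/PSME3.

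The assembly factors went both ways. PSMD10, also known as gankyrin, is a chaperone of the base that binds an ATPase and is counted as an oncoprotein in liver cancer. PSMD10 (ENSG00000101843.19) lies on the minus strand of GRCh38 at chrX:108084207-108091618. It was at 28.8, 30.9, 30.7 and 27.6 CPM in the untreated and 46.4, 48, 49.2 and 49 CPM in the DOX-treated replicates 1 to 4. The groups were far apart, and the rise was the largest among the members tested (log2FC 0.71, SE 0.05, adjusted p = 1.07e-07, edgeR). Of the other base chaperones, PSMD9 fell by 0.18 on the log2 scale with overlapping groups (adjusted p = 0.0244, edgeR), and PSMD5 had a log2FC of -0.05 that did not pass (adjusted p = 0.386, edgeR).

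The chaperones of the core alpha ring, PSMG1 to PSMG4, fell by 0.35, 0.33, 0.42 and 0.35 on the log2 scale (adjusted p = 0.000154, 0.00113, 0.00203 and 0.000364, edgeR). PSMG3 was at 13.9, 13.9, 18.8 and 14 CPM in the untreated libraries and at 10.8 to 11.9 CPM in the treated ones. Its high value belonged to OMO replicate 3, and the groups did not overlap. POMP, which helps the beta ring to mature, was at 52.6 to 62.7 CPM without and 52.8 to 59.1 CPM with DOX, a log2FC of 0.03 that did not pass (adjusted p = 0.658, edgeR).

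**Figure D4:**
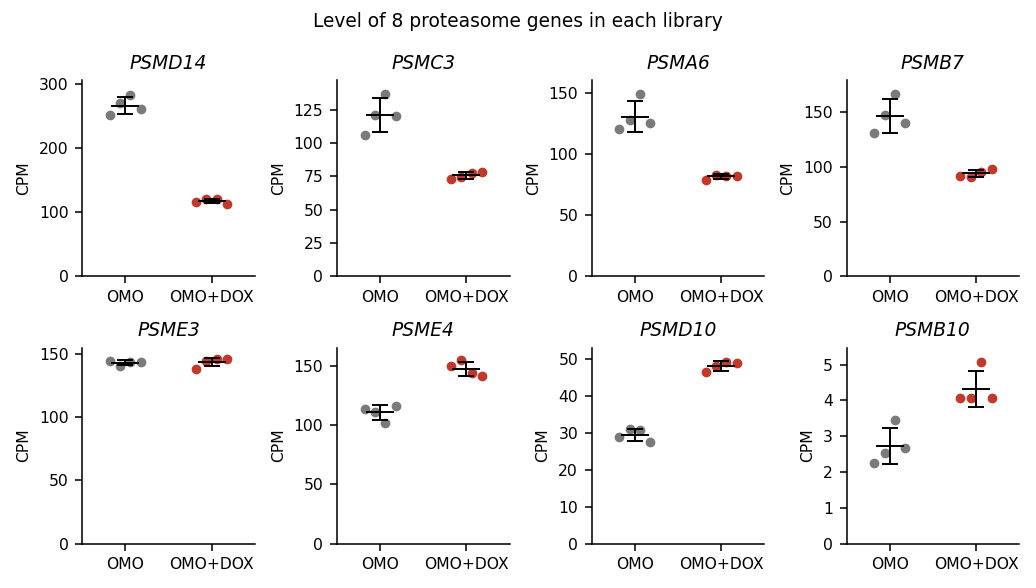
Level in CPM (vertical axes from 0, one scale per gene) of 8 proteasome genes in the 4 OMO and 4 OMO+DOX libraries (points), with the mean and SD of each group as bars. PSMD14, PSMC3, PSMA6 and PSMB7 are lower in every treated library, PSME3 overlaps, and PSME4, PSMD10 and PSMB10 are higher in every treated library.

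The make-up of the proteasome transcripts was also expressed as the share of each gene in the summed counts of the 46 tested members of a library, a quantity that no scaling between libraries can change and that was chosen after the values had been seen. PSMD14 made up 5.92% ± 0.14 of these counts without and 3.16% ± 0.14 with DOX (SD, n = 4 each). PSMD10 went from 0.658% ± 0.036 to 1.3% ± 0.016, and PSME4 from 2.48% ± 0.28 to 3.98% ± 0.26. The treated shares were below all untreated ones for 11 members and above them for 20, and the groups overlapped for 15. Shares sum to a fixed total, so that the falls of PSMD14 and of other members raise the shares of the rest. The summed level of all 50 members went from 4491 to 3710 CPM, and a higher share need not be a higher level. PSMA3, with a log2FC of -0.02, went from 1.195% to 1.427%.

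Levels of different members were compared per kilobase of 1 annotated transcript, on the scale of CPM per kilobase. In untreated cells the 14 constitutive core genes lay between 12.6 for PSMA5 and 208 for PSMB4, a 16.5-fold range. The 18 members of the 19S particle lay between 12.9 for PSMC2 and 159 for PSMD4, a 12.3-fold range. With DOX these ranges were 15.2-fold and 13.3-fold, with the same genes at both ends. The annotated transcript of PSMA5 used here is long, at 3729 bases, so that its level on this scale is uncertain. PSMD14 was the highest of the 8 lid genes without DOX, at 136 ± 6.73 CPM per kilobase, and the third of them with DOX, at 59.9 ± 1.82 (SD, n = 4 each), below PSMD3 and PSMD8. The order depends on the length chosen. With the merged length of all exons, the untreated core genes ranged from PSMA2 to PSMB5, the 19S genes ranged 9.32-fold from PSMD6 to PSMD4, and PSMD14 was below PSMD3 and PSMD8 in untreated cells too.

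Promoter sequences from RefSeq (GRCh38.p14), covering 250 bases before to 50 after a start, matched 44 of the 50 members by symbol. Motifs were searched on both strands, and a match is a run of letters rather than a site shown to be bound. TGACNNNGC, the core of the element bound by the proteasome gene regulator NFE2L1, was present in 16 of the 44 members, or 36.4%. Of 10238 tested protein-coding genes with a sequence, 19.3% held it. In the last 150 bases of the window these shares were 15.9% and 11.5%. The 16 include PSMB9, which was not among the genes tested, and the differences in share were not tested. The element was present in 8 of 23 members that fell, 6 of 14 that did not pass and 1 of 3 that rose. The median log2FC was -0.18 for the 15 tested members with it and -0.22 for the 25 without it. The following stretches show it in members that fell (PSMD3, PSMC5, PSMG2, PSMA4), did not pass (PSMD12) and rose (PSME4), with the element in capitals on either strand and the gene's own strand printed 5′ to 3′.
PSMD3, chr17:39980760-39980789, plus strand: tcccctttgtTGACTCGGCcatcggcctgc
PSMC5, chr17:63827654-63827683, plus strand: gaccggatctGCTGTGTCAgcgccgccctc
PSMG2, chr18:12658689-12658718, plus strand: cagtttcccgTGACCCCGCggccgctctgc
PSMA4, chr15:78540650-78540679, plus strand: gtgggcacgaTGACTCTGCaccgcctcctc
PSMD12, chr17:67366723-67366752, minus strand: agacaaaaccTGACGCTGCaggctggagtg
PSME4, chr2:53971008-53971037, minus strand: cccggcggctGCAGCGTCAccagcagagcc

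The MYC-bound E-box CACGTG was found in 3 of the 44 members, PSMB3, PSMD9 and PSME3, or 6.82%, against 12.7% of the tested protein-coding genes. This difference in share was not tested. It was present in 1 of the 23 members that fell. CCAAT, the box bound by NF-Y, was present in 21 members, or 47.7%, against 43.7% of the tested protein-coding genes. The 21 include PSMB9 and PSMB11, which were not among the genes tested. Of the members tested, both the one with the largest fall and the one with the largest rise hold a CCAAT box, as the following stretches show, with CCAAT or its reverse complement ATTGG in capitals. No binding was measured in these libraries.
PSMD14, chr2:161308370-161308395, plus strand: gtcgtctCCAATTGGccgtcggggaa
PSMD10, chrX:108091603-108091628, minus strand: aaggccggtgATTGGtgaagctctaa

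Genes that work with the proteasome went both ways. Of 32 ubiquitin genes, activating enzymes, shuttles, cofactors and regulators, 14 fell and 11 rose, where 38.1% and 38.5% of all genes did, with a median log2FC of -0.06. With libraries scaled by total counts alone, 9 fell and 15 rose, where 31% and 47% of all genes did. Among the larger rises were those of the ubiquitin-activating enzyme UBA6 and of ZFAND5, a stimulator of the proteasome, with log2FC of 1.07 and 0.76 (adjusted p = 2.57e-08 and 8.53e-09, edgeR). UBA6 was at 35.2 to 42.6 CPM without and 78.5 to 88.5 CPM with DOX, so that its groups were far apart. The largest falls were those of TXNL1, a thioredoxin-like protein bound to the 19S particle near PSMD14, of UFD1, a cofactor of the unfoldase VCP, and of the proteasome-bound ubiquitin ligase UBE3C. These fell by 0.72, 0.57 and 0.46 on the log2 scale (adjusted p = 9.37e-08, 2.35e-07 and 1.12e-06, edgeR). SEM1, the small lid subunit whose name falls outside the definition of the members, fell by 0.36 (adjusted p = 0.000198, edgeR) and NFE2L1 fell by 0.32 (adjusted p = 1.57e-05, edgeR), both named for their role rather than by size.

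Of 9 genes of antigen presentation and its regulation, the setting in which immunosubunits act, 8 were tested, 5 rose and 1 fell, where 38.5% and 38.1% of all genes did. The peptide transporter subunit TAP2, the MHC class I light chain B2M and the class I transactivator NLRC5 rose by log2FC of 2.50, 1.31 and 1.09 (adjusted p = 2.42e-07, 2.31e-09 and 2.35e-05, edgeR). TAP2 was at 0.447 to 0.964 CPM without and 3.23 to 3.89 CPM with DOX. It entered the genes tested only through its treated libraries, and 4 genes of the list rose when more than 1 CPM was asked of more than 4 libraries. IRF1, an interferon-induced transcription factor, fell by 1.08 on the log2 scale (adjusted p = 6.21e-07, edgeR).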

How the data were processed

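PolyA+ RNA of D283-OMO cells was sequenced by the authors as read pairs from a stranded kit, 4 untreated and 4 DOX-treated libraries (72 h). Per the labels and the study's methods, reads were trimmed with Trim Galore, aligned with STAR to GRCh38 with GENCODE 32 and quantified with RSEM. The authors deposited expected counts per gene, without normalization, in which reads matching several genes are already divided among them.

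Samples were grouped by their titles. Expected counts were rounded, genes above 1 CPM in 4 or more of the 8 libraries were kept, and OMO+DOX was compared with OMO by edgeR 4.0.16 in R 4.3.3 (TMM, quasi-likelihood test, Benjamini-Hochberg adjustment over all genes tested, no covariates). CPM use TMM-scaled library sizes. The SE of a log2FC is its size over the square root of the F statistic. The biological coefficient of variation was 0.0745. Depths of 38390696 to 54020506 counts put the floor of 3 counts at 0.0581 to 0.0748 CPM. Symbols, types and positions came from GENCODE 29, which held 99.3% of the tested identifiers. The lengths are those of the principal transcript. Ratios within a library were compared by an exact two-sided permutation test over the 70 divisions of 4 against 4 libraries. The edgeR and DESeq2 fits were tested on simulated data with known changes in a small part of the genes. Far more genes changed in the real libraries, so that the simulation does not bear on the choice of scaling. Other steps used scipy 1.17.1 and pandas 2.3.3 under Python 3.11.15.

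The members and lists were chosen with earlier results of these data known. Named were the 4 largest changes each way among members that passed (3 rose), the members of the ratios, the largest change in each role, the 3 largest changes each way among partners (1 of them is not reported here), up to 4 antigen presentation genes, and MYC, CAD and NCL; further members were named to account for all. Alternatives were other scalings, filters and tests (DESeq2 1.42.0), the replicate block, pseudogene counts added, exon lengths, a shorter promoter window and each library left out. Protein sequences were not analysed here.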

Additional observations from a re-analysis of the deposited data

Results flagged for a closer look

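In 9 of the 100 groups of 4 libraries examined (46 members and 4 sums, in both groups), 1 library lay far from the other 3 relative to the group's range, where chance gives about 1 in 20. OMO replicate 3 was the high library for PSMB1 (190.9 CPM, the others 156 to 159), PSMC5 (208.7 CPM, the others 175 to 179), POMP (62.67 CPM, the others 52.6 to 53.5) and PSMG3 (18.82 CPM, the others 13.9 to 14). Low untreated values were those of PSMC6 in OMO replicate 4 (84.1 CPM, the others 87.1 to 87.7) and PSME3 in OMO replicate 2 (140.1 CPM, the others 143.9 to 144.4). Among the treated libraries, PSMA2 was low in replicate 1 (28.84 CPM, the others 31.9 to 32.5), PSMG4 high in replicate 4 (15.63 CPM, the others 13.7 to 13.8) and PSMB10 high in replicate 3 (5.068 CPM, the others 4.06 to 4.07). The calls of PSMB1, PSMC5, PSMC6, PSMA2, PSMG3, PSMG4 and PSMB10 held with each library left out in turn.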

How the results depend on the processing

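DESeq2's size factors, the Wald test of DESeq2, edgeR's likelihood ratio test and added pseudogene counts changed no call of a member. Scaling by total counts alone raised the median log2FC of all genes by 0.13 and moved the values most. The members that rose numbered 8 in place of 3, the partners that fell 9 in place of 14 and those that rose 15 in place of 11. Of all genes, 31% fell and 47% rose under this scaling. The medians became -0.10 for all members, -0.25 for the ATPases, -0.16 for the other base subunits and 0.0053 for the lid. They were -0.083 for the alpha and -0.089 for the constitutive beta subunits, 0.20 for activators and inhibitor and -0.13 for assembly factors. Of the members, 10 turned sign under it: PSMA3 (0.11), PSMA5 (0.029), PSMA7 (0.016), PSMB2 (0.0089), PSMD1 (0.056), PSMD5 (0.074), PSMD7 (0.047), PSMD11 (0.015), PSMD12 (0.12) and PSMD13 (0.073). PSMD12 also turned sign with more than 1 CPM asked of more than 4 libraries (0.005), and PSME3 without a filter on low counts (-0.023). The stricter filter lost the call of PSMB2 and added PSME1, and no filter added PSMB5. Without that filter 1 member, PSMB8, passed the thresholds of the study, on a fitted log2FC of 2.90 that rests on 7 untreated counts. Over all genes, 1084 passed these thresholds, 562 with the stricter and 2097 without a filter.

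With each library left out in turn, 25 to 29 members fell and 3 to 5 rose, the 5 without OMO replicate 3. Of all genes, 36.5% to 39.4% fell and 36.6% to 39.7% rose in these fits. The median log2FC of the members ranged from -0.28 to -0.16. That of the alpha subunits ranged from -0.25 to -0.16 and that of the constitutive beta subunits from -0.27 to -0.15. Each was smallest in size without OMO replicate 3. Signs turned for POMP (-0.0007 to 0.092), PSMA3 (-0.049 to 0.020), PSMD12 (-0.027 to 0.008), PSMD13 (-0.094 to 0.0034) and PSME3 (-0.013 to 0.022). The differences in log2 ratio ranged from 1.23 to 1.36 for PSMB10/PSMB7, from 0.10 to 0.19 for PSME1/PSME3, from 0.026 to 0.13 for PSME2/PSME3 and from 0.37 to 0.44 for PSME4/PSME3, and PSMB10/PSMB7, PSME1/PSME3 and PSME4/PSME3 passed after adjustment without OMO replicate 3. The call of PSMB2 was lost in 6 of these fits, that of PSMD9 without OMO+DOX replicate 1 or 2, of PSMB4 without OMO+DOX replicate 2 and of PSMD11 without OMO replicate 4, whereas PSMD8 and PSMB5 fell without OMO replicate 1.

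Same-numbered libraries of the groups correlated by -0.18 to 0.24 in their deviations, so the numbers were not taken to pair them. With the replicate number as a block 29 members fell and 4 rose, with PSMB3 and PSME1 added, where 38.4% and 39.2% of all genes did. With merged exon length the range of the 19S genes was 9.32-fold. In the last 150 bases of the promoter windows the shares with CACGTG, TGACNNNGC and CCAAT were 2.27%, 15.9% and 27.3%. Those of the tested protein-coding genes were 7.93%, 11.5% and 29.6%, so that the share with CCAAT was then below theirs. The share with CACGTG rested on 1 member, PSME3. Depth limits PSMA8, PSMB9 and PSMB11, for which no difference was detectable at 9 counts or fewer per group. The causes of these differences were not tested.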
